A study of Drosophila melanogaster with 2 samples.

Results

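The regions described here are the candidate binding regions of ADD1 in pericentric sequence, the repeat-rich stretch of each chromosome arm next to the centromere, that lie away from gene starts and outside annotated transposons. They were taken from the list that the authors made from both replicates pooled, which holds 30000 regions, peaks and background together, each with a summit and a signal value. A region was a member when its summit lay on 2L from 22 Mb, on 3L from 23 Mb, on 3R up to 4.2 Mb or on X from 22 Mb, more than 500 bp from any annotated transcription start site and in no annotated transposable element. The rule covers no part of 2R. Of 1939 pericentric summits on these arms, 160 were within 500 bp of a start site and a further 192 lay in a transposon, which left 1587 members of the 30000 regions. By arm, 325 members lay on 2L, 865 on 3L, 318 on 3R and 79 on X. Among the 30000 listed regions the members were chosen by position alone, and the rule did not use their signal.

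The study mapped ADD1, the product of CG8290, on chromatin with ChIP-seq. The material was whole embryos of Drosophila melanogaster aged 0 to 14 hours, both sexes pooled, from a transgenic line that stably expresses ADD1 with GFP fused to its C terminus. Its 1 group has 2 biological replicates, numbered 2 and 3, with chromatin sonicated to 200 to 800 bp. A description in the labels calls both samples input controls, whereas the antibody named for them is against CG8290. Input and untagged samples were not analysed here, so signal that untagged chromatin would also give could not be told apart from binding. Whole embryos mix many cell types, and read depth is unknown because the lists hold no read counts.

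Pericentric heterochromatin is packed by heterochromatin protein 1 and by a methylated form of histone H3, is poor in genes and is built largely of transposons and of satellites, short sequences repeated head to tail. ADD1 carries an ADD domain, a histone-reading module also found in the vertebrate remodeller ATRX, and is known as a partner of heterochromatin protein 1 in the fly. The few genes that do lie in this sequence often have very long introns filled with repeats.

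Only 8 of the 1587 members (0.504%, 95% exact Clopper-Pearson interval 0.218 to 0.991) were in the authors' optimal list, the 2478 regions of highest pooled signal that the authors kept after thresholding on IDR, a measure of reproducibility between replicates. Of all 30000 pooled regions, 8.26% were in that list. Among the 14336 regions of the same 4 arms that met the same rules but lay outside the pericentric bounds, called here the rest of the arms, 838 were in it (5.85%, 5.47 to 6.24). The intervals of the members and the rest of the arms do not overlap; they cover the counting of regions only, and neighbouring regions are not independent. Of the 8, 5 lay on 3L, 2 on 2L, 1 on 3R and none on X, where 0 of 79 allows a share of up to 4.56%. Their sequences are shown first, because 5 of the 8 lie on satellite repeats. Each runs from 100 bp before to 100 bp after the summit in the RefSeq sequence of dm6, written 5′ to 3′.

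Of these members, 4 on 3L share a sequence family, an AT-rich satellite. All are on the strand that matches the strongest of them, so chr3L:24635268-24635468 and chr3L:24603326-24603526 are the minus strand and chr3L:27069226-27069426 and chr3L:27070757-27070957 the plus strand. Capitals mark stretches of at least 12 bases that occur in another of these windows.
3L 27069326: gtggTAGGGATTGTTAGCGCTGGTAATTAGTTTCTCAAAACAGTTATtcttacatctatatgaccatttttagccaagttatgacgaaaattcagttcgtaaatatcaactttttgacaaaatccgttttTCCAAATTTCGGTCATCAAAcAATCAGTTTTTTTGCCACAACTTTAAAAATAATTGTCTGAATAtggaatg
3L 24635368: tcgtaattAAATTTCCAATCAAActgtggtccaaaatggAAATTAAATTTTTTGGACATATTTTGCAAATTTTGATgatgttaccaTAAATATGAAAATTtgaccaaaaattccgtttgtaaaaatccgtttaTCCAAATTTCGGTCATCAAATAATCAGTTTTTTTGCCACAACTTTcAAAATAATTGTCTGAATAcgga
3L 27070857: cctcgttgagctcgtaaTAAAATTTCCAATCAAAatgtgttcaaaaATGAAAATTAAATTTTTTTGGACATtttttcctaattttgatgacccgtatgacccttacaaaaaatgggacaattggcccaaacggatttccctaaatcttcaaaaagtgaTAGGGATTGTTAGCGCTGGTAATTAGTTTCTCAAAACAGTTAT
3L 24603426: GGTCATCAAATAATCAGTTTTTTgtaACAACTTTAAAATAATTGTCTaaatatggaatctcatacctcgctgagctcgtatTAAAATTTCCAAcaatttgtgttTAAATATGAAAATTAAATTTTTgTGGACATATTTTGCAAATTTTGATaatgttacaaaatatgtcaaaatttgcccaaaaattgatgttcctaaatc
The shared stretches covered 106, 129, 85 and 102 bases of these windows in that order. The sequence around the first summit repeated best at a distance of 350 bp, where 61.4% of bases matched, against a median of 28.4% over the distances of 3 to 400 bp tried in 1001 bp. Around the summit at 27070857 the best distance was 361 bp, with 59.8% of bases matching. The other windows repeated less clearly, at 220 bp with 48% matching around 24635368 and at 340 bp with 42.2% around 24603426.

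The strongest member of all lay on a different repeat, a purine satellite at the end of the assembled 2L sequence, at chr2L:23512768-23512968 on the plus strand. Its capitals mark 21 copies of the 7-base unit AAGAGAG, a run of the kind long known from fly heterochromatin.
2L 23512868: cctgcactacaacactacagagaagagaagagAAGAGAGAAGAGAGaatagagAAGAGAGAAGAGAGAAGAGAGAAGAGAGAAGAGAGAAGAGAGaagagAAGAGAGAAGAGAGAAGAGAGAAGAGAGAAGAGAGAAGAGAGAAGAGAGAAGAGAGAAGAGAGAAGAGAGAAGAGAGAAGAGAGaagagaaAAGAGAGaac
Over 1001 bp around the only optimal member on 3R the best repeat distance was 60 bp. There 40.8% of bases matched, against a median of 30.7%, and this distance is not the spacing of the capitals below. The window, at chr3R:3374202-3374402 on the plus strand, was not soft-masked at all as a repeat, but the capitals show words of at least 9 bases that come back within it.
3R 3374302: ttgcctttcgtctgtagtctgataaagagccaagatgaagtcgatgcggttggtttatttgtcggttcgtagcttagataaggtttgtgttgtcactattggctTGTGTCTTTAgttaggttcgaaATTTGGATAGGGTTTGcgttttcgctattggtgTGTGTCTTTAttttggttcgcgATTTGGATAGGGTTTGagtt
The other two optimal members were ordinary non-satellite sequence, at chr2L:22037017-22037217 and chr3L:23583543-23583743, both on the plus strand. Capitals mark matches to the motifs searched, of which the first window had none and the second 1, to the TGCATA core of the insulator protein Su(Hw).
2L 22037117: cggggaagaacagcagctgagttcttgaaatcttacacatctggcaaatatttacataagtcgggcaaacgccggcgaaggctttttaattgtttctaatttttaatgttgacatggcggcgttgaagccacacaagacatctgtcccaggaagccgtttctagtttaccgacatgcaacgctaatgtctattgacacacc
3L 23583643: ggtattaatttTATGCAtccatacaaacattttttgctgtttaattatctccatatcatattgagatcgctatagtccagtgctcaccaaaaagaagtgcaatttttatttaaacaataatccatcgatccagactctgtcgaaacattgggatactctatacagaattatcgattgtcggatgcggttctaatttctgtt

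The satellite member on 2L had a pooled signal of 333 and rank 293 of 30000. Its overlapping region ranked 127 in the list of replicate 2 and 645 in that of replicate 3. The signal is the value of the authors' caller, on an unstated scale, and only orders regions within a list. The called interval, 2L 23512762 to 23513021, ended within 1 kb of the last assembled base, the summit being 844 bp from it and 96952 bp from the nearest start site. Of the 36-base words in its window, 47.6% occurred once in the assembly, and 93% of its bases were soft-masked.

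The 4 optimal members of the AT-rich family ranked 364, 748, 2021 and 2123 in the pooled list, with signals of 306, 231, 148 and 144. The strongest, at 3L 27069168 to 27069459, ranked 224 in replicate 2 and 545 in replicate 3. The next, at 3L 24635205 to 24635510, ranked 737 and 808. The one at 3L 27070790 to 27070930 ranked 2458 in replicate 2 and 1981 in replicate 3, and that at 3L 24603204 to 24603647 ranked 2027 and 2732. All 4 were intergenic, between 13049 and 82258 bp from the nearest start site, and only 31.3% to 33.7% of their 36-base words were unique in the assembly. The treatment of reads that align to several places is not stated in the labels or files used here, so which copy of the repeat the reads came from cannot be told apart.

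The remaining 3 optimal members had mostly or wholly unique sequence. The member at 3R 3374218 to 3374374 had a signal of 214 and rank 866, with ranks of 673 in replicate 2 and 1416 in replicate 3. It lay between genes, 51492 bp from the start of spok, a gene of ecdysone synthesis, and 86.1% of its 36-base words were unique. The member at 2L 22036895 to 22037338 had a signal of 163 and rank 1625, ranked 1911 and 1699 in the replicates, and was the only one of the 8 whose 36-base words were all unique. It was also the closest of the 8 to a start site, 743 bp from that of the gustatory-receptor-like gene Grl40a. The member at 3L 23583421 to 23583864, with a signal of 161 and rank 1678, ranked 1534 and 2290. It lay in an intron of AGO3, an Argonaute protein that acts with Piwi-interacting RNAs against transposons, 27718 bp from its start site.

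Just below the weakest optimal member (signal 144) came 3 members with signals of 131, 130 and 130. The first, at rank 2536, lay in the 3′ untranslated region of CG40228, the second, at rank 2580, in the 5′ untranslated region of Clamp, 516 bp from a start site, and the third, at rank 2595, in an intron of CG42402. Clamp encodes a zinc-finger protein that binds GA-rich sequence and takes part in dosage compensation. In the replicates these 3 ranked 1301, 2887 and 1677 in replicate 2 and 3312, 2706 and 4559 in replicate 3. The strongest member on X, at 22443338 to 22443781 and 667 bp from the start of CG14621, had a signal of 123 and pooled rank 2871, and ranked 3460 in replicate 2 and 2474 in replicate 3.

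**Figure D1:**
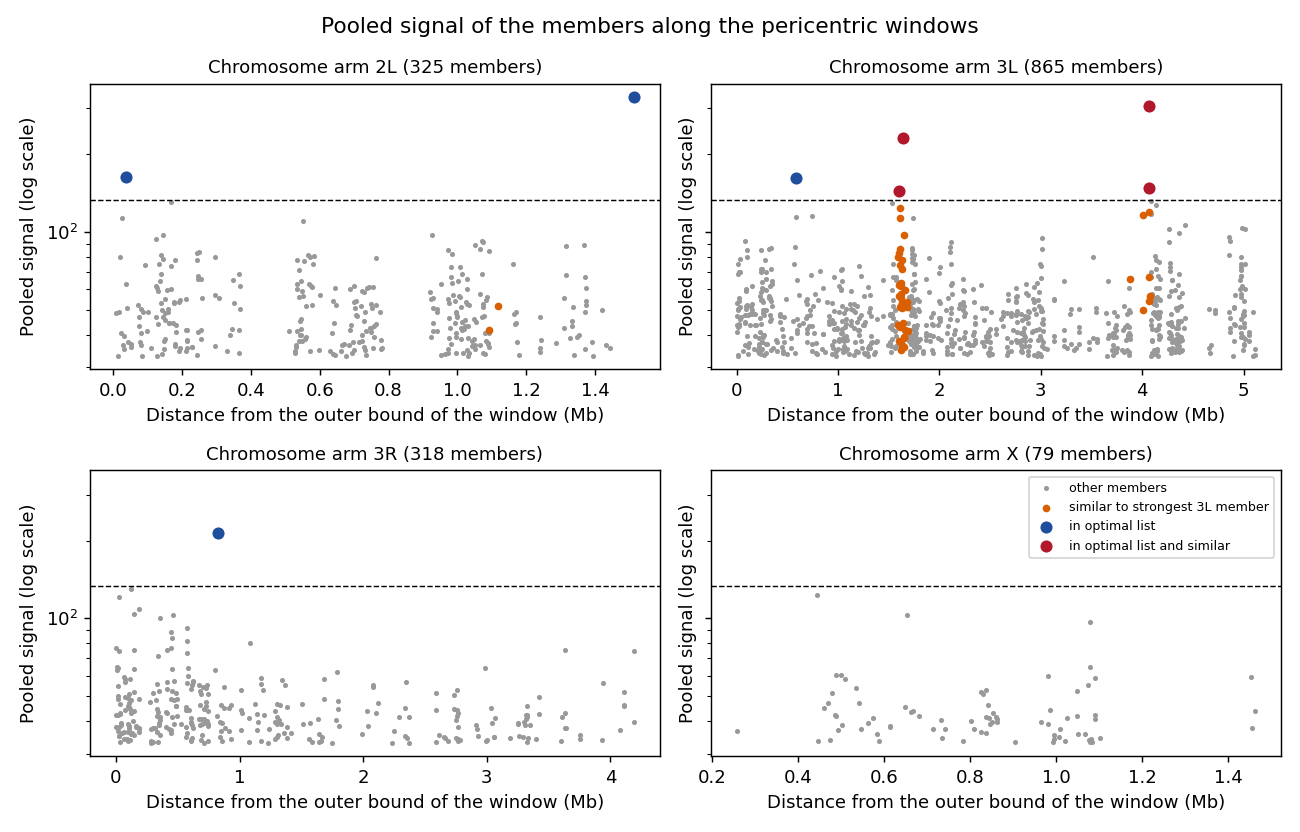
Pooled signal (log scale) of each member against its distance in Mb from the outer bound of the window, by arm; points are members, coloured by membership of the optimal list and of the satellite family, and the dashed line is the lowest signal of the optimal list. The 8 optimal members stand above the line, with family members in 2 narrow columns on 3L and none of the 79 members on X above it.

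Most members were weak regions of the pooled list. Their median rank was 18792 and their median signal 43.4, against 16844 and 46.2 for the rest of the arms and 15000 and 49.5 for all pooled regions. Of the members, 33.6% ranked in the stronger 15000 regions, against 43.5% of the rest of the arms. The gap was wider at the top than in the middle of the list: the 90th percentile of signal was 68.3 for the members and 99.1 for the rest of the arms. Median rank was 17095 on 2L, 18255 on 3L, 20574 on 3R and 21200 on X for members, and 16429 to 17635 by arm for the rest of the arms.

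**Figure D2:**
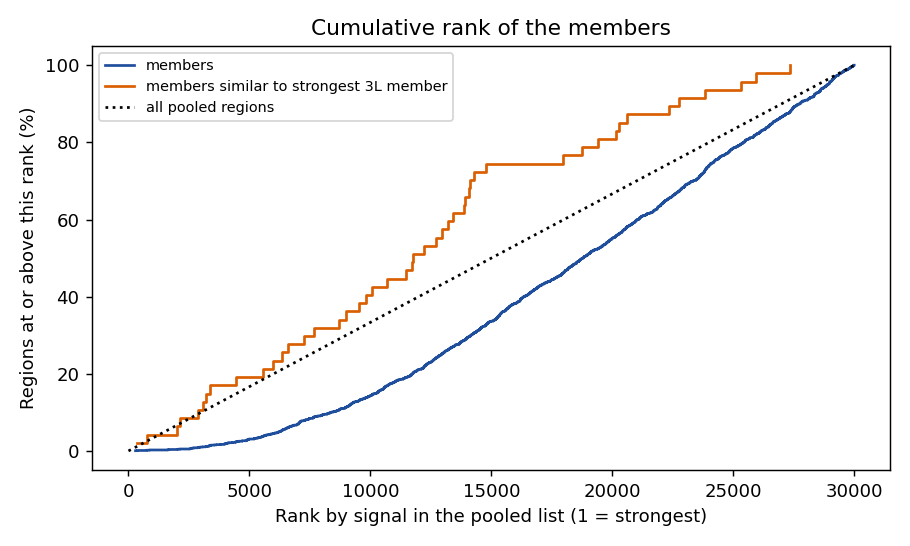
Cumulative share of regions (%) against rank by signal in the pooled list (1 is the strongest), for all members, for the members of the AT-rich satellite family and, as a straight line, for all pooled regions. The curve of the members runs below the line (median rank 18792) and that of the family above it (median rank 11773).

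The AT-rich satellite family accounted for 4 of the 8 optimal members. By alignment of the sequence around the strongest 3L member with every summit window, 54 pooled regions belonged to the family, and 47 of them were members. For these 47, identity over the aligned stretch, 65 to 222 bp long, had a median of 87.5% and was at least 74.8%. Of the 47, 4 were in the optimal list (8.51%, 2.37 to 20.4), near the 8.26% of all pooled regions. The member that defined the family is 1 of these 4. Of the other 1540 members 4 were in the list (0.260%, 0.0708 to 0.664). The family's median rank was 11773, against 18982 for the other members, and 74.5% of it ranked in the stronger 15000 regions, against 32.4%. The family was defined from a member picked for its signal, so these values describe it and carry no test.

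The family members lay almost wholly in 2 places on 3L. Between 24593878 and 24685578, a span of 91.7 kb, all 36 members belonged to the family, and all had the opposite orientation to the strongest one. Between 26881620 and 27082058, a span of 200 kb, all 9 members belonged to it, all in the same orientation. The first place held 2 of the optimal members and the second the other 2, with median ranks of 12592 and 8716. The remaining 2 family members lay on 2L, at ranks 13884 and 20148. The family windows had a median GC content of 29.9%, against 40.3% for all members, and 45 of 47 were more than 75% soft-masked. Neighbouring copies often shared a region in the replicate lists: the members at 3L 27070623 and 27070857 were both matched to the regions ranked 2458 in replicate 2 and 1981 in replicate 3, although the first ranked only 8716 in the pooled list.

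Most of the optimal members had sequence that recurs in the assembly, unlike most members. Of the members, 63.0% had a window whose 36-base words were all unique in the assembly, against 99.1% of the rest of the arms, and 3.72% (59 members) against 0.0349% (5 regions) had under 50% unique words. Of those 59 members, 5 were optimal (8.47%, 2.81 to 18.7), near the 8.26% of all pooled regions. In the rest of the arms 1 of the 5 such regions was optimal (20%, 0.505 to 71.6). Among the 528 members with 50% to under 100% unique words 2 were optimal (0.379%), and among the 1000 with wholly unique windows only 1 (0.100%, 0.00253 to 0.556). In the rest of the arms 831 of the 14203 regions with wholly unique windows were optimal (5.85%, 5.47 to 6.25). The members' share was thus below that of the rest of the arms also in wholly unique sequence. By soft-masking, 5 of 89 members with at least 75% masked bases were optimal (5.62%, 1.85 to 12.6). They were the same 5 members as those with under 50% unique words, so the order by masking adds no separate result. In the rest of the arms 1 of 8 such regions was optimal (12.5%, 0.316 to 52.7). Optimal members were 1 of 413 with 25% to 75% masked (0.242%) and 2 of 1085 with under 25% (0.184%), the last against 5.45% in the rest of the arms.

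**Figure D3:**
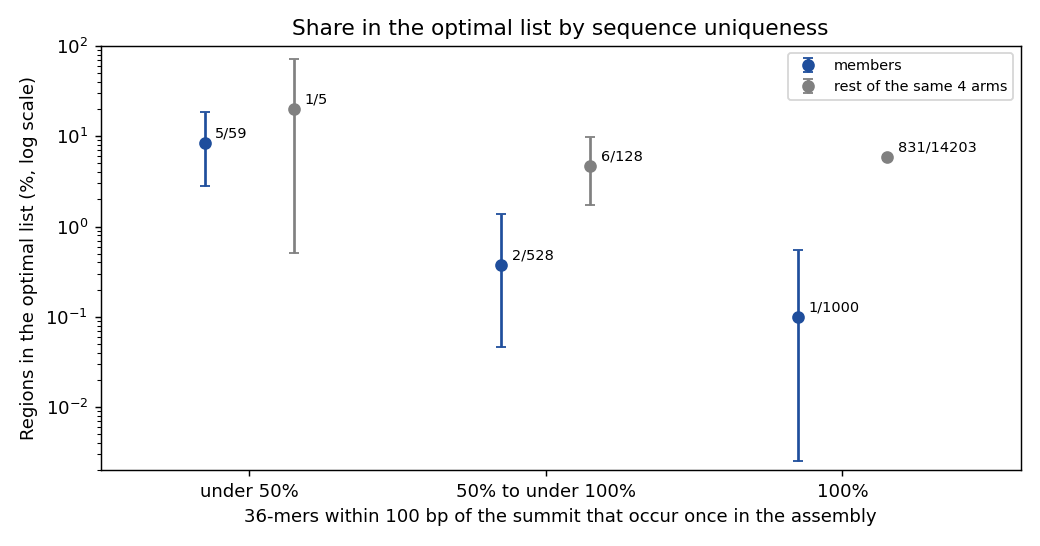
Share of regions in the optimal list (%, log scale) by the share of 36-base words of the summit window that occur once in the assembly; points are shares with 95% exact intervals, members on the left and the rest of the arms on the right of each pair, with counts. Of wholly unique windows 1 of 1000 members and 831 of 14203 others were optimal.

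The replicates differed in how many of the members they held. A region of the list of replicate 2 overlapped 83.4% of the members (rest of the arms 76.4%, all pooled regions 78.7%). A region of the list of replicate 3 overlapped 64.3% of them (rest of the arms 73.6%, all pooled regions 77.9%). Both lists overlapped 51.9% of the members and 54.6% of the rest of the arms, and neither 4.16% and 4.62%. The same rule applied to each list alone gave 1807 members in replicate 2 and 1222 in replicate 3, with 416 and 208 of them on 3R and 78 and 67 on X. Among members, the share overlapped by replicate 3 was lower further from start sites. It was 81.1% for the 228 members up to 2000 bp away, 71.9% up to 10000 bp, 62.0% up to 50000 bp and 48.7% for the 380 beyond. Replicate 2 overlapped 86.8%, 82.7%, 83.9% and 81.6% of the same members. In the rest of the arms replicate 3 overlapped 75.6%, 73.2%, 70.2% and 71.4% at these distances, the last of 35 regions. Distance was mixed with arm. Members on 3R had a median distance of 46232 bp, against 14133 bp for all members, and replicate 3 overlapped 49.4% of them. Whether distance or arm accounts for the fall was not tested. Within the AT-rich family replicate 3 overlapped more members than replicate 2, 97.9% (46 of 47 members) against 87.2%.

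The order of the members was also less alike between the replicates than over the rest of the arms as a whole. Over the 824 members overlapped in both lists, the ranks of the matched regions had a Spearman correlation of 0.293, against 0.603 over 7824 regions of the rest of the arms; both are descriptions over regions of the same 2 libraries. For the 40 such members of the AT-rich family it was 0.796, with some pairs of members sharing a matched region. By distance from a start site, the correlation of the members was 0.381 up to 2000 bp, 0.274 up to 10000 bp, 0.208 up to 50000 bp and 0.256 beyond. In the rest of the arms it was 0.61, 0.594, 0.606 and, over only 22 regions beyond 50000 bp, 0.318. The value of the members was thus the lower at each distance. Members also spanned less signal (90th percentile 68.3 against 99.1), and whether this lowered their correlation was not tested. One of the 2478 strongest regions of replicate 2 overlapped 28 members (1.76%), beside 10.9% of all pooled regions, and 1 of those of replicate 3 overlapped 13 (0.819%), beside 11.0%. Both did so for 8 members (0.504%), beside 7.53% of all pooled regions and 5.20% of the rest of the arms. These 8 were 7 of the optimal members and the family member at 27070623 that shares their regions, while the optimal member at 24603426, rank 2732 in replicate 3, fell short. Within each replicate's own list 20 of 1807 members (1.11%) and 10 of 1222 (0.818%) were among the strongest 2478, against 5.58% and 5.51% for the rest of the arms. The member share was thus below the rest in both lists but above the pooled 0.504%. The pooled list shares its reads with both replicate lists, so they are no independent check of it. The optimal list was itself selected on reproducibility between the replicates, so its overlap with their strongest regions carries no test.

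**Figure D4:**
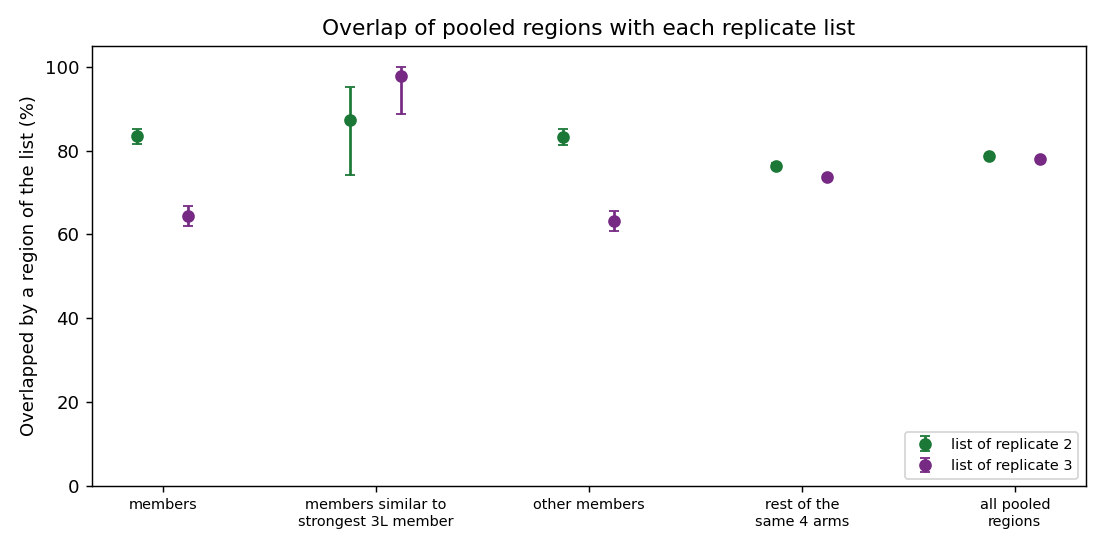
Share of pooled regions (%) overlapped by at least 1 bp by a region of the list of replicate 2 or replicate 3, with 95% exact intervals, for the members, the AT-rich family, the other members, the rest of the arms and all pooled regions. Members were overlapped in 83.4% by replicate 2 and 64.3% by replicate 3, and the family in 87.2% and 97.9%.

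The members were spread over 12.4 Mb at 128 per Mb, against 151 per Mb for the rest of the arms. Density was 215 per Mb on 2L, 169 on 3L, 75.7 on 3R and 51.2 on X, against 135, 166, 131 and 177 per Mb outside the bounds. On 2L the members were thus denser than the rest of the arm and on 3R and X sparser. These densities are over the whole length, including the sequence near start sites and in transposons that the rule leaves out. The distance between neighbouring members had a median of 1876 bp, with a longest gap of 351960 bp, and 49.3% of members had another within 1000 bp. The densest 100 kb, 3L from 24700001, held 67 members, of which 34 lay in the body of scro, a homeobox gene. None of the 67 belonged to the satellite family. None was optimal, too few members to set against the 0.504% of all members.

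Introns held 739 members (46.6%, 44.1 to 49.1) and intergenic sequence 677 (42.7%, 40.2 to 45.1), against 57.0% and 25.9% of the rest of the arms. Coding exons held 111 members, 3′ untranslated regions 42, 5′ untranslated regions 7 and other exons 11. Of the intronic members 1 of 739 was optimal (0.135%), against 552 of 8174 intronic regions elsewhere on the arms (6.75%). Of the intergenic members 7 of 677 were (1.03%), against 5.30%.

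The 910 members in gene bodies lay in 101 genes, and the 8 genes with the most members held 410, 25.8% of all members. None of the 410 was in the optimal list, which held 0.504% of all members and 8.26% of all pooled regions. At the share of all members few would be optimal, so this count is no trait of these genes. Myo81F, a myosin gene whose annotated body spans 1966 kb of 3R (567076 to 2532932), held 74, all in introns. Its members had a median rank of 22223, and replicate 2 overlapped 85.1% of them but replicate 3 only 18.9%. On 3L, l(3)80Fg held 58 members (median rank 18917), lovit, which encodes a vesicular transporter of histamine in photoreceptors, 54 (22086), and the RNA helicase gene Dbp80 52 (21592). CG40006 on 2L held 46 (19693) and Pzl on 3R, a Piezo-like channel gene, 45 (21878). Snap25, a synaptic SNARE protein gene, held 42 (18840), and nAChRalpha4, an acetylcholine receptor subunit gene, 39 (16725). A member within overlapping genes counts for each. The strongest member in any of these 8 genes was in Dbp80, at rank 4296 with a signal of 98.8. Per length, nAChRalpha4 held 48.3 members per 100 kb and Myo81F 3.76. In lovit, as in Myo81F, replicate 2 overlapped far more members (85.2%) than replicate 3 (35.2%), whereas in l(3)80Fg the shares were 69.0% and 74.1%.

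Short motifs were looked for in either orientation in the same windows, and 9 of 13 were found in a smaller share of members than of the rest of the arms. The dinucleotide repeat CACACACA was in 1.39% of members (0.871 to 2.09), 7.42% of the rest of the arms (7.0 to 7.86) and 6.42% of all pooled regions. The GAGA-factor word GAGAGAGA was in 1.26%, against 3.06%, and AAAAAAAAA in 4.73%, against 8.31%. A quadruplex pattern, 4 runs of at least 3 G with 1 to 7 bases between them, was in 0.504%, against 2.29%. The AP-1 word TGACTCA was in 1.01%, against 2.04%, and the Su(Hw) core in 11.9%, against 15.5%. Intervals of members and the rest of the arms overlapped for the M1BP core GGTCACAC, the Zelda word CAGGTAG, and the satellite words AATATAATA, AAGAGAAGA and AATAACATA. GAGAGAGA and AAGAGAAGA can overlap within a purine run. A match is a word in the sequence, not a shown binding site.

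The words of 2 motifs were in a larger share of members with intervals that did not overlap. TATCGATA, the word of the DNA replication-related element factor Dref, was in 35 members (2.21%, 1.54 to 3.05), 0.537% of the rest of the arms (0.424 to 0.671) and 2.30% of all pooled regions, where start sites are included. None of the 35 was in the optimal list (interval 0 to 10%), which held 0.504% of all members and 8.26% of all pooled regions. It held 4 of the 77 such regions of the rest of the arms (5.19%, 1.43 to 12.8), so the intervals overlap. The median rank of the 35, 18515, was close to that of all members. The strongest, an intergenic member at 3L 24536167 with wholly unique sequence, had a signal of 129 and rank 2643, and ranked 1681 in replicate 2 and 6132 in replicate 3. GTACGGGAC, a core of the dodeca satellite of chromosome 3, was in 7 members (0.441%, 0.178 to 0.907), all on 3R, against 5 regions of the rest of the arms (0.0349%, 0.0113 to 0.0814). None of the 7 was optimal and none of the 5, too few to compare with the 0.504% of all members.

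**Figure D5:**
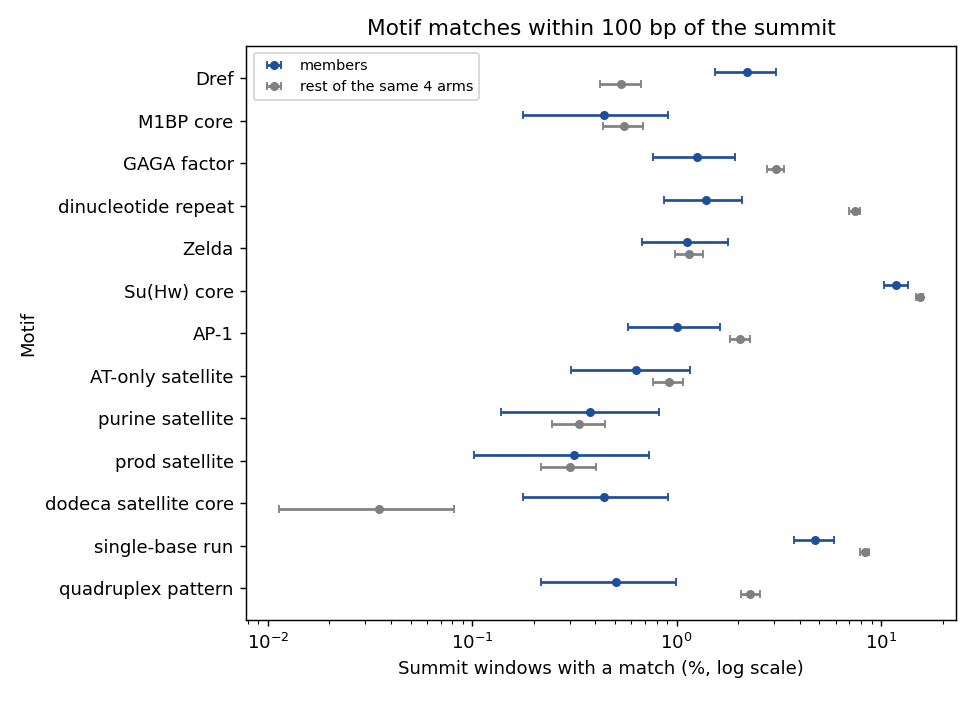
Share of windows of 100 bp on each side of the summit (%, log scale) with at least 1 match to each motif on either strand, with 95% exact intervals, members above the rest of the arms. The Dref word and the dodeca core lie to the right in members, at 2.21% and 0.441%, and the dinucleotide repeat to the left, at 1.39% against 7.42%.

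The share of 0.504% rested on few regions and on where the bounds lay: it was 1.51% (37 of 2450) with bounds 1 Mb further from the centromere, 0.184% in windows under 25% soft-masked, 0.196% in windows with at least 50% unique words and 0.260% without the AT-rich family. In each of these the share stayed below the 8.26% of all pooled regions. Counting only the stronger 50% of the optimal list gave 0.252%. The share of all pooled regions falls from 8.26% in the same proportion by construction, so this is no further drop relative to it. At the bounds themselves, the members next to the line on 3L and 3R had signals of 53.0 and 37.9, and the regions just outside it 35.9 and 34.6. The member closest to a start site, 504 bp away, had a signal of 52.4, and the region left out at 499 bp one of 114.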

How the data were processed

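ADD1-GFP ChIP-seq was analysed from 4 narrowPeak lists on dm6, per the labels: 30000 regions for each of 2 replicates and for both pooled, and the 2478 optimal IDR-thresholded peaks. The deposited text derives them from each replicate's alignments and 1 file common to the replicates, with no role stated. Not stated in the labels or files used here are aligner, caller, IDR cutoff and the treatment of reads that align to several places. The signal is a score that the authors' caller gave each region, used only for ranks within a list. The deposited −log10 q-value was capped for the strongest regions and was not used for ranking. It was 0.895 for the member at 3L 27070623, whose signal of 66.7 is above the members' median of 43.4. The pooled list holds peaks and background together, so membership alone does not mark a peak.

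Summits were placed against Ensembl release 115 genes and transposons and the RefSeq dm6 sequence. Sequence windows ran 100 bp to each side of the summit. Uniqueness is the share of 36-base words that occur once in the assembly on either strand. The satellite family was found with blastn 2.17.0 (E-value at most 1e-10, 361 bp query). Lists were matched by 1 bp of overlap. Shares have 95% exact intervals (scipy 1.17.1), which cover the counting of regions only; no tests were made, since 2 replicates of 1 group allow none between conditions. The named regions were the optimal members, the 10 strongest members, the strongest on each arm, the 3 strongest outside the optimal list, those among the strongest regions of both replicates, and the 8 genes with most members. The members, motifs and rules were chosen with earlier results of these data known. Functions were tested on simulated data.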

Additional observations from a re-analysis of the deposited data

How the results depend on the processing

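Other bounds, distances from start sites and transposon rules were tried, and the share of members in the optimal list stayed below 8.26% under all of them. Moving the bounds 1 Mb outward gave 1.51% in the optimal list, 1.35% overlapped by strong regions of both replicates, 81.5% overlapped by replicate 2 and 67.2% by replicate 3. Windows under 25% soft-masked gave 0.184% for each of the first 2 shares. Requiring at least 50% unique 36-base words, chosen after seeing the data, gave 0.196%. Requiring 2000 bp from start sites gave 61.5% for replicate 3. Requiring 50% of each interval gave 78.2% and 57.5%, and summits within 100 bp 67.2% and 46.8%, for replicates 2 and 3. With either replicate left out, the share of members among the strongest 2478 regions of the other replicate's own list was 0.818% to 1.11%, the median rank 17229 to 19444, the intronic share 42.6% to 47.5%, the density 98.8 to 146 per Mb and the spacing 1778 to 2103 bp. Windows of 50 and 250 bp on each side gave a median GC content of 40.6% and 39.1%. The masked share was 17.0% with the wider window. Windows with under 50% unique words were 2.71% of members with the narrower window and 2.08% with 50-base words. The other settings moved no result beyond its interval or the spread of the replicates, except 16 of 26 motif shares with other windows and the density on X. No paired analysis was possible because the study has 1 group. Read depth is unknown and no input was analysed here.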

Other observations

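The AT-rich satellite is far more widespread in the assembly than in the members. The sequence around the strongest 3L member matched 337 stretches of at least 100 bp on 3L, 336 of them inside the pericentric window, 598 on X, none of which lay in the X window, 130 on 2L and 2145 on sequences not placed on these chromosomes. A pooled region overlapped 86 of the matches on 3L, 15 of those on X and 6 of those on 2L. The pooled list holds 45 regions of the family on 3L and 4 on X, and the 7 family regions that are not members ranked 17209 or lower. Of these 7, 2 lay on 2R, at 1234240 and 1234491, an arm that the rule does not cover.

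The 7 members with the dodeca core lay on 3R, 2 of them within 13 kb of the first assembled base, at 11492 and 12129. The strongest of them had a signal of 74.9 and pooled rank 7095, with replicate ranks of 4671 (replicate 2) and 13490 (replicate 3). The next, in an intron of Alg-2, had a signal of 73.7 and rank 7290. All 7 were overlapped in the list of replicate 2, and 4 of them in that of replicate 3.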
